A study of Mus musculus with 16 samples.

Results

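The 602 loci described here were assembled by the authors from their own long reads, carry an assembly number in place of a gene symbol, and had at least 100 counts on average over the 16 mice. They were chosen by that mean count alone, out of 7066 assembled loci (8.52%) in a table of 26625 entries, and they held 88.4% of the counts of all assembled loci. Since the mean count selected them, their abundance is given as a description, and tests are restricted to differences between groups and to covariation. The mean ran over the mice of all groups, so a locus could pass through the mice of one virus alone, and the number that did is given beside the knockdown calls. Just inside the threshold stood ONT.6177 and ONT.10561 with a mean of 100 counts each and ONT.2261 with 100.3, and just outside it stood ONT.15401 with 99.81, ONT.2858 with 99.62 and ONT.10716 with 99.31.

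Long-read sequencing reads complementary DNA from end to end, and software then joins reads that lie at the same place of the genome into a locus. A locus that overlaps no annotated gene can be an unrecorded transcript, an extension or an antisense copy of a known gene, a gene segment rearranged in immune cells, or one of the many processed copies that abundant messenger RNAs have left in the mouse genome. KDM7A is a demethylase of histone H3 that removes methyl groups associated with silent chromatin.

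RNA came from the medial prefrontal cortex (mPFC) of male C57BL/6 mice aged 8 to 10 weeks, and cDNA-PCR libraries were read on a Nanopore instrument. Mice received in the mPFC either a virus with a control shRNA (NC-shRNA, called Ctrl) or an adeno-associated virus with an shRNA against Kdm7a under the U6 promoter and EGFP under the CMV promoter (Kdm7a-shRNA), were conditioned over 10 days with saline or with morphine at 10 mg/kg, and were sampled on day 7 of withdrawal. The U6 promoter is active in most cell types, and all 4 groups carry a virus. There were 3 mice in Ctrl + Saline, 4 in Ctrl + Morphine, 5 in Kdm7a-shRNA + Saline and 4 in Kdm7a-shRNA + Morphine.

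Totals ranged from 6596991 to 12418112 counts a mouse. Kdm7a had 9.42 ± 0.353 normalized CPM (SD, n = 3) in Ctrl + Saline, 5.55 ± 0.571 (n = 5) in Kdm7a-shRNA + Saline, 7.72 ± 1.13 (n = 4) in Ctrl + Morphine and 4.94 ± 1.53 (n = 4) in Kdm7a-shRNA + Morphine mice, a partial reduction that passed under saline (edgeR adjusted p = 0.0153) and not under morphine (adjusted p = 0.0506). Normalized CPM are counts scaled to the library total (CPM), adjusted by the trimmed mean of M values (TMM), whose factors were 1.019 to 1.074 in the 7 control mice and 0.9134 to 0.9911 in the 9 knockdown mice. All 8 excitatory neuron and all 8 GABAergic interneuron markers looked for were measured, with mean log2 levels of 4.65 to 5.77 and 4.21 to 4.89, against 2.12 to 3.42 for 6 striatal markers. Of 8 microglial markers, 7 were higher with knockdown under saline and 5 under morphine, and all 5 red blood cell markers were lower with knockdown under saline and 0 under morphine. Of the GABAergic markers 3 were lower and 2 higher under saline, and 1 was lower and 1 higher under morphine. In bulk tissue, fewer cells of a type and less RNA per cell cannot be told apart.

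Several of the 602 loci had almost the same count as an annotated gene in every mouse. ONT.17267 differed from Rps12-ps3 by 0.287% of their counts summed over 16 mice, less than counting error allows between a pair of independent counts. Rps12-ps3 is a copy of Rps12, the gene of a small ribosomal subunit protein. It is annotated as protein coding at chr19:59322290-59322783 on the plus strand of GRCm38 (GENCODE vM21), while Rps12 lies at chr10:23785183-23787275 on the minus strand. The first 120 bases of the coding sequence are shown because they let a reader see how little separates such entries. Capitals mark bases that differ from Rps12, and Rps12-ps10 is a processed pseudogene on chromosome 2.
Rps12: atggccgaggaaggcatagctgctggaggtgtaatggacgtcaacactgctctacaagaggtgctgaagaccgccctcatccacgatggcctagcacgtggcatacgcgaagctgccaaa
Rps12-ps3: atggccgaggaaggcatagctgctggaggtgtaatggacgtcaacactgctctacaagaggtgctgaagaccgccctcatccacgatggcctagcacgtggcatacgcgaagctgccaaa
Rps12-ps10: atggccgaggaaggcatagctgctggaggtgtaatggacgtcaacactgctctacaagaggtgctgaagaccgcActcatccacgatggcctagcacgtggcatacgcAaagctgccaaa

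The Rps12-ps3 stretch, at chr19:59322371-59322490, carried 0 differences from Rps12, and the Rps12-ps10 stretch carried 2. All 464 of the 31-base words in the 494-base Rps12-ps3 transcript were present in Rps12, and 19 genes in all shared at least 100 of those words. The table gives no position or sequence for an assembled locus, so none is shown for ONT.17267 itself, and whether the same reads were counted at both entries was not tested.

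ONT.17267 had 2412, 2774 and 2111 counts in the Ctrl + Saline mice, against 2410, 2789 and 2116 for Rps12-ps3. In Kdm7a-shRNA + Saline mice it had 4008, 5120, 4680, 3168 and 4763 counts, against 4018, 5135, 4694, 3178 and 4771. A second locus, ONT.16677, followed both at 2395, 2752 and 2100 counts in Ctrl + Saline mice. On these counts the 3 entries cannot be taken as separate observations of 3 transcripts. After normalization ONT.17267 was higher with knockdown by 0.75 on the log2 scale under saline (adjusted p = 0.00412) and by 0.60 under morphine (adjusted p = 0.0205), and Rps12 itself by 0.75 and 0.58 (adjusted p = 0.00387 and 0.0207).

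Such near-equality was common. Within a difference of 5% of the summed counts, 105 of the 602 loci fell into 36 clusters, the largest holding 6 loci, and 497 stood alone. A stricter condition divided each mouse's squared count difference by the pair's summed count and required a sum below 1 over the 16 mice. Under this limit, called counting error here, 42 loci in 17 clusters remained, joined by 36 pairs. A pair above the limit can still differ by less than independent counts do. The 3 largest clusters had mean counts of 1872 to 2074 (6 loci), 3977 to 4120 (5 loci) and 2724 to 2884 (5 loci), and their members differed pairwise by up to 9.76%, 5.75% and 7.69%, since clusters join linked pairs. Loci of 1 such cluster did not share a most similar gene: in the first, ONT.18765 was most like Rps18, ONT.20211 like Rpl30 and ONT.16141 like Rpl36, and in the second ONT.15411 was most like Rpl35a and ONT.15541 like Rps28. A difference within 5% alone therefore does not show that loci repeat each other. With an annotated gene within 5%, 40 loci matched 37 genes, and 15 of these loci matched 1 of 10 ribosomal protein genes. Under the limit of 1, 3 loci matched an annotated gene, ONT.17267 and the pair ONT.13382 and ONT.16387. Other pairs lay not far above that limit, such as ONT.15090 with Rps16 (1.86) and ONT.16677 with Rps12-ps3 (2.06).

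That pair matched Ccdc36, a gene known for its role in meiotic chromosomes. ONT.13382 had 2102, 2631 and 2509 counts in Ctrl + Saline, and 1967, 6806, 3158 and 2021 in Kdm7a-shRNA + Morphine mice, against 2109, 2641 and 2519, and 1971, 6821, 3162 and 2026, for Ccdc36. Transcripts of Ccdc36 (chr9:108403611-108428484, minus strand, GRCm38) shared 100 or more 31-base words with 0 other annotated genes. Replicate 2 of Kdm7a-shRNA + Morphine stood far above every other mouse in both entries.

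The largest cluster under counting error held ONT.13106, ONT.17058, ONT.17098, ONT.18212 and ONT.5934, whose mean counts ran from 750.1 to 751.3 and which differed pairwise by 0.0167% to 0.191%. Their counts followed Lrrc17, which encodes a protein with leucine-rich repeats, at 94.9% to 95% of its summed counts. Normalized CPM of ONT.13106 were 101, 67.8 and 75.6 in Ctrl + Saline, 73.2, 68.7, 81.6 and 66.5 in Ctrl + Morphine, 82.3, 72.1, 93.6, 80.1 and 69.3 in Kdm7a-shRNA + Saline, and 66, 227, 61.3 and 98.4 in Kdm7a-shRNA + Morphine mice. Again replicate 2 of the last group stood alone, and the other mice overlapped between all groups.

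**Figure D1:**
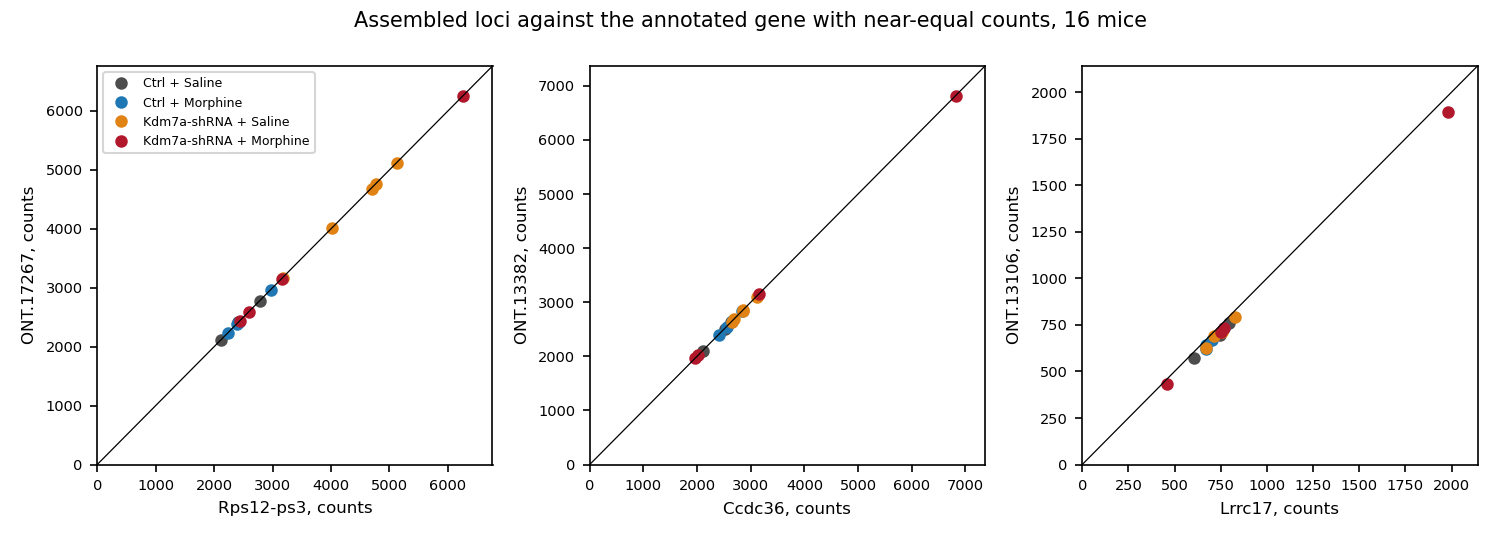
Counts of 3 assembled loci (y axes) against the annotated gene they follow (x axes) in each of 16 mice, coloured by group, with the line of equal counts. ONT.17267 lies on the line with Rps12-ps3 and ONT.13382 with Ccdc36, while ONT.13106 lies just under it with Lrrc17, and 1 Kdm7a-shRNA + Morphine mouse stands apart in the Ccdc36 and Lrrc17 panels.

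The behaviour of replicate 2 of Kdm7a-shRNA + Morphine was shared by a defined set of loci. In 24 of the 602 loci (3.99%) this mouse had at least 1.5 times the level of the next highest mouse, against 30 of all 8015 entries of mean at least 100 (0.374%). The excess was 1.59 to 2.78 times, with a median of 2.26. Of the 24 loci, 22 had Ccdc36, Timm22 (a subunit of a mitochondrial inner membrane translocase) or Lrrc17 as the annotated gene most like them, and 0 of the 24 were called in a knockdown comparison. Lrrc17 accounted for 15 of the 22, Ccdc36 for 4 and Timm22 for 3. Several of these loci had near-equal counts, so the 24 cannot be taken as separate observations. The 24 are also part of the 30. The next most frequent mice were replicate 3 of Ctrl + Saline with 15 such loci and replicate 2 of Ctrl + Saline with 7.

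The most abundant locus, ONT.15475, had a mean of 68746 counts, 10% of all counts on the 602 loci, and its level differed widely between mice of the same group. Its normalized CPM were 19350, 11108 and 24.6 in Ctrl + Saline, 21364, 30.8, 9953 and 2115 in Ctrl + Morphine, 18089, 68.9, 2686, 22485 and 642 in Kdm7a-shRNA + Saline, and 15188, 4445, 36.3 and 14.6 in Kdm7a-shRNA + Morphine mice. Every group held mice with very high and very low levels, the groups overlapped over nearly the whole range, and the highest mouse exceeded the lowest 1537-fold. The locus made up 0.00145% to 2.24% of a mouse's reads.

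Over the 16 mice with group means removed, the annotated gene most like ONT.15475 was Jchain, the joining chain of secreted immunoglobulins, with r = 0.99 on log2 values. The next genes included the class II antigen presentation genes H2-Aa (r = 0.88), H2-Eb1 (0.84) and Cd74 (0.84). All 10 mice with over 1000 normalized CPM of ONT.15475 had more than 100 Jchain counts, and the 5 mice under 100 normalized CPM had at most 5. Jchain counts were 787, 480 and 1 in Ctrl + Saline, 1709, 2, 399 and 256 in Ctrl + Morphine, 1101, 5, 134, 987 and 36 in Kdm7a-shRNA + Saline, and 739, 315, 2 and 4 in Kdm7a-shRNA + Morphine mice.

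The second most abundant locus, ONT.4709 with a mean of 28651 counts, ranged from 309.8 to 12892 normalized CPM, a 41.6-fold span, and was also most like Jchain (r = 0.91). Its r with ONT.15475 was 0.91. Neither locus differed between groups beyond this spread, with adjusted p of 0.95 and 0.833 for ONT.15475 and of 0.493 and 0.791 for ONT.4709 in the knockdown comparisons under saline and morphine. Jchain was named after its values were seen, and each r is the highest of 7389 computed with annotated genes of mean at least 100.

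**Figure D2:**
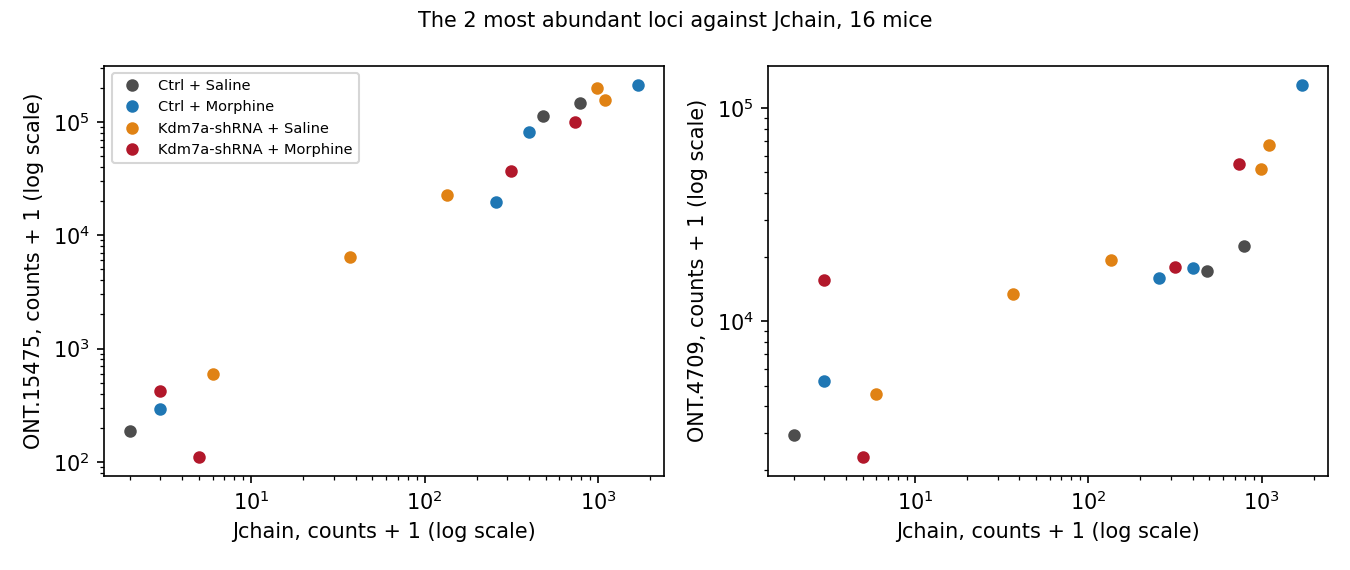
Counts plus 1 of ONT.15475 (left) and ONT.4709 (right) against those of Jchain in each of 16 mice, both axes on a log scale, coloured by group. Both loci rise with Jchain over a range that every group spans.

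The 602 loci together took 6.39% to 9.86% of a mouse's reads, and 6.19% to 7.32% without those 2 loci. Without them the share was 7.03% ± 0.253 (SD, n = 3) in Ctrl + Saline, 6.49% ± 0.225 (n = 4) in Ctrl + Morphine, 6.61% ± 0.147 (n = 5) in Kdm7a-shRNA + Saline and 6.62% ± 0.434 (n = 4) in Kdm7a-shRNA + Morphine mice. The mean count over the 602 loci had a median of 282.5 and quartiles of 165.8 and 977, and the 8 most abundant loci held 27.5% of the counts.

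The other 6 of those 8 followed single abundant genes at a nearly fixed ratio. ONT.3161, ONT.10900 and ONT.6215 had medians of 14.1%, 13.4% and 13.3% of the counts of Gapdh, a glycolytic enzyme, and over the mice the first of these ratios stayed within 13.5% to 14.9%. ONT.19322 had 34.4% to 36.9% of the counts of Ppia, which encodes cyclophilin A. ONT.11542 had 87.5% to 89.7% of those of Rps29, and ONT.5796 had 14.2% to 15.1% of those of Rpl41, both ribosomal protein genes. In GENCODE vM21, 129 genes shared at least 100 of the 31-base words of Gapdh and 21 shared as many with Ppia.

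Where 2 of these loci passed on adjusted p, the genes they followed had similar fold changes. Under saline ONT.19322 fell by 0.46 on the log2 scale with knockdown and Ppia fell by 0.43 (adjusted p = 0.007 and 0.00698), while ONT.11542 rose by 0.50 and Rps29 by 0.49 (adjusted p = 0.01 and 0.0111). None of these 4 reached the fold change of 1.5 used for a call. Neither ONT.3161 nor Gapdh passed, with log2 fold changes of -0.27 and -0.25 (adjusted p = 0.135 and 0.137).

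Over all 602 loci, 207 had an r of at least 0.95 with their most similar annotated gene, for 76 of them a ribosomal protein gene and for 8 a subunit of the respiratory chain or ATP synthase. The median of the highest r was 0.93, a value that a search over 7389 genes in 16 mice raises by itself. No p is given for these correlations, in which all values share the same libraries.

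Knockdown comparisons ask which loci differ between Kdm7a-shRNA and Ctrl mice under each treatment. Calls rested on edgeR's quasi-likelihood test with Benjamini-Hochberg adjustment over 18826 tested entries, an adjusted p below 0.05 with a change of 1.5-fold or more, and all 602 loci passed the filter on low counts. Under saline 115 loci (19.1%) were lower and 27 (4.49%) higher with knockdown, against 9.31% lower and 7.43% higher over all entries. Under morphine 74 (12.3%) were lower and 13 (2.16%) higher, against 4.83% and 2.86%. The share of lower loci was thus above that of all entries in both comparisons, and the share of higher loci was below it. The latter depended on the fold requirement, since with the adjusted p alone 94 of the 602 loci were higher under saline and 51 under morphine, against 1824 and 739 of the 18826 entries, a larger share of the loci than of all entries. Of the 602 loci, 543 reached a mean of 100 counts in the 7 control and in the 9 knockdown mice alike, 45 in the control mice only and 14 in the knockdown mice only, and the rule favours a lower call in the 45 and a higher call in the 14. Among the 543, a split added after the data were seen, 80 loci (14.7%) were lower and 24 (4.42%) higher under saline, and 45 (8.29%) were lower and 11 (2.03%) higher under morphine. The count under morphine fell to 49 lower loci without replicate 3 of Ctrl + Morphine and to 46 without replicate 4, and the count of higher loci under morphine fell to 5 without either and to 3 without replicate 3 of Kdm7a-shRNA + Morphine. Under saline 17 and 13 higher loci were called without replicates 2 and 3 of Ctrl + Saline.

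The median log2 fold change over the 602 loci was -0.01 under saline and 0.02 under morphine. Over all entries the medians were 0.01 and -0.00. Without TMM scaling the median of all entries moved by -0.13 under saline and by -0.11 under morphine, and the calls then became 145 lower and 19 higher, and 82 lower and 6 higher. Annotated genes of mean at least 100, which were not matched on abundance beyond that minimum, were lower in 3.38% and 1.33% and higher in 9.6% and 3.51% of cases under saline and morphine, and assembled loci under the threshold were lower in 32.5% and 17.5%.

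**Figure D3:**
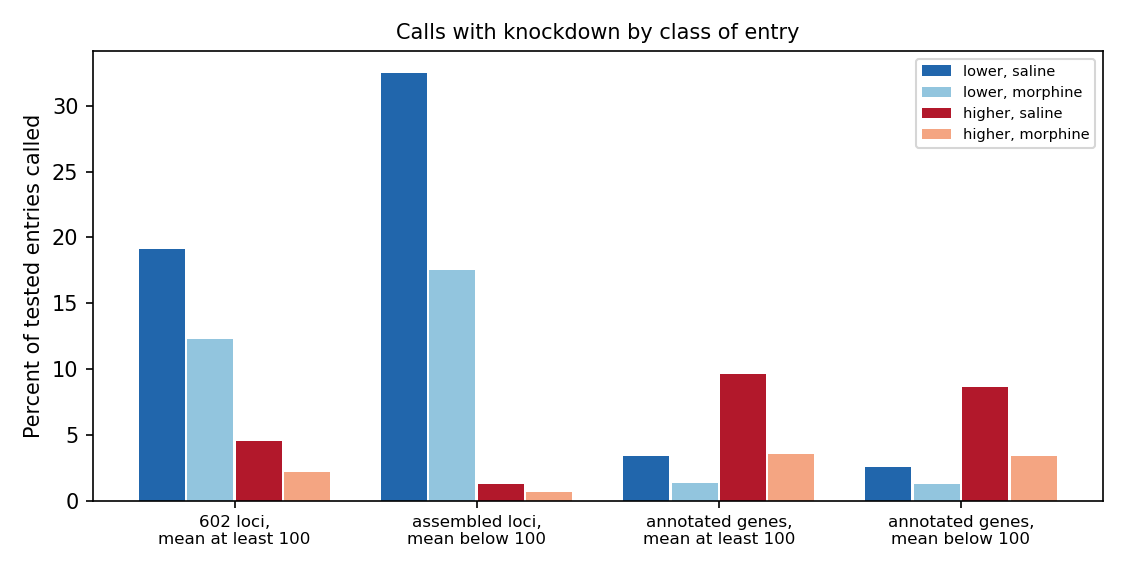
Percent of tested entries called lower or higher with knockdown under saline and morphine (y axis), for 4 classes of entry (x axis). The 602 loci, at 19.1% and 12.3% lower, stand between less abundant assembled loci (32.5% and 17.5%) and annotated genes of mean at least 100 (3.38% and 1.33%).

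The share of lower loci was smallest among the most abundant. In 4 equal bins from the least to the most abundant it was 27.2%, 30%, 15.3% and 3.97% under saline and 19.2%, 17.3%, 12% and 0.662% under morphine. The median log2 fold change under saline was -0.27, -0.26, -0.03 and 0.31 in the same order. Higher loci made up 7.28% of the most abundant bin under saline and 3.31% under morphine, near the 7.43% and 2.86% of all entries. The bins rest on the mean count that also selected the loci. The 45 loci that passed through the control mice only held 35 of the lower calls under saline and 29 under morphine. Their part in the bins was not tested, and the 543 loci that passed in both viruses were not binned apart.

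**Figure D4:**
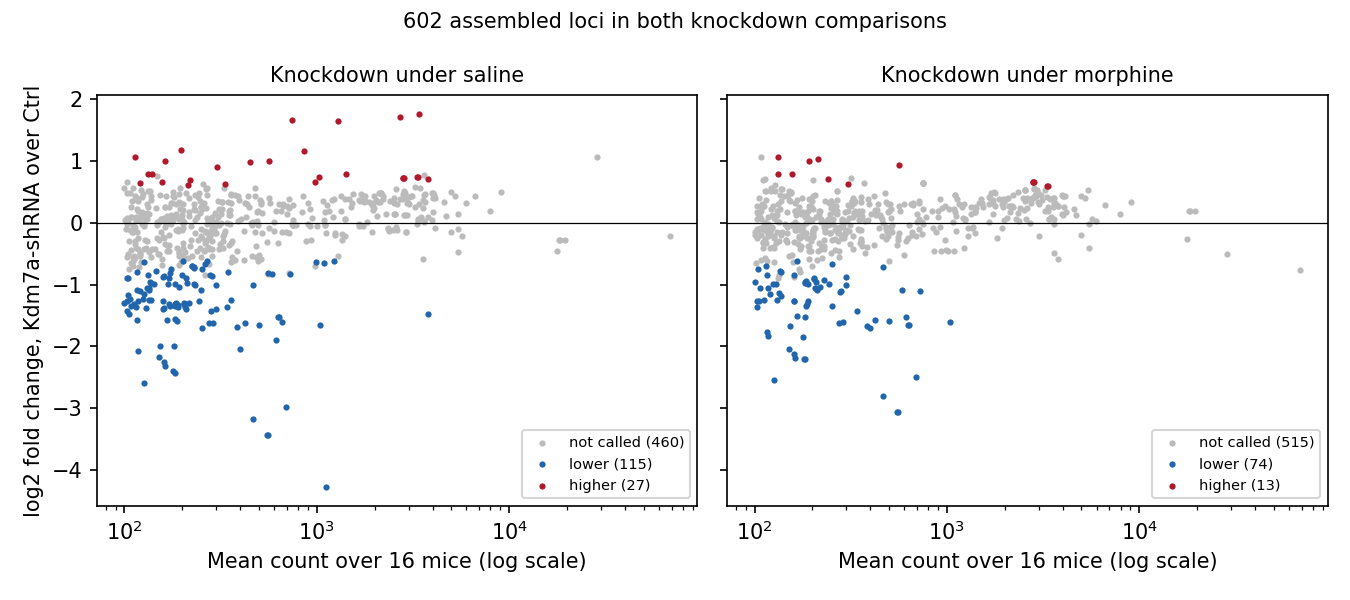
Log2 fold change of Kdm7a-shRNA over Ctrl (y axis) against mean count on a log scale (x axis) for the 602 loci, under saline (left) and morphine (right), with called loci in colour. The 115 and 74 lower loci lie mostly at low counts, and the 27 and 13 higher ones reach to higher counts.

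The locus with the smallest adjusted p was ONT.11919, about 11-fold lower with knockdown. Its normalized CPM were 127, 96.2 and 263 in Ctrl + Saline against 14.6, 15.4, 16.5, 11.8 and 16.9 in Kdm7a-shRNA + Saline mice, a log2 fold change of -3.43 (SE 0.343, adjusted p = 4.71e-05). In Ctrl + Morphine it had 109.8, 38.7, 123 and 147 against 8.43, 15.9, 13 and 12.3 in Kdm7a-shRNA + Morphine mice, a log2 fold change of -3.07 (SE 0.36, adjusted p = 5.96e-04). The 9 knockdown mice stayed within 8.43 to 16.9 while the 7 control mice spread from 38.7 to 263, and no knockdown mouse reached any control mouse. ONT.16568 had the same counts to within 0.653% and cannot be taken as a second observation.

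ONT.11706 had the same lowest and highest control mouse, with 161, 125 and 275 in Ctrl + Saline, 142, 41.7, 148 and 173 in Ctrl + Morphine, 29.6, 20.7, 24.5, 22.4 and 21.4 in Kdm7a-shRNA + Saline and 21.3, 26.3, 17.9 and 23.8 in Kdm7a-shRNA + Morphine mice. It was 7.88-fold lower under saline and 5.66-fold lower under morphine (adjusted p = 7.17e-05 and 9.22e-04). ONT.11227 had 102, 77.8 and 211, then 95.7, 30.6, 101 and 118, then 13.9, 15.4, 16.2, 11 and 15, then 8.73, 15.5, 13.4 and 11.8 in the same order of groups, and was 9.08-fold and 6.95-fold lower (adjusted p = 7.17e-05 and 9.22e-04). With group means removed its r with ONT.11919 was 1.00 although their counts differed by 16.7%, and whether these are separate transcripts was not tested.

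ONT.17117 was 3.73-fold lower under saline, from 121, 111 and 169 normalized CPM in the controls to 31.3, 39.3, 34.2, 40.6 and 33.9 (adjusted p = 9.12e-05). ONT.18355 was 5.39-fold lower under saline, from 29.7, 31.7 and 63.1 to 7.12, 8.99, 8.18, 7.09 and 7.04 (adjusted p = 9.23e-05). ONT.13733 was 4.56-fold lower under morphine, from 33.4, 13.2, 38.6 and 38.1 to 5.98, 8.63, 5.58 and 6.84 (adjusted p = 9.73e-04). ONT.18355 and ONT.13733 had under 100 counts in every knockdown mouse and entered the set through the control mice, so the rule favours their being lower. In each of these 3 the knockdown mice lay below all control mice.

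**Figure D5:**
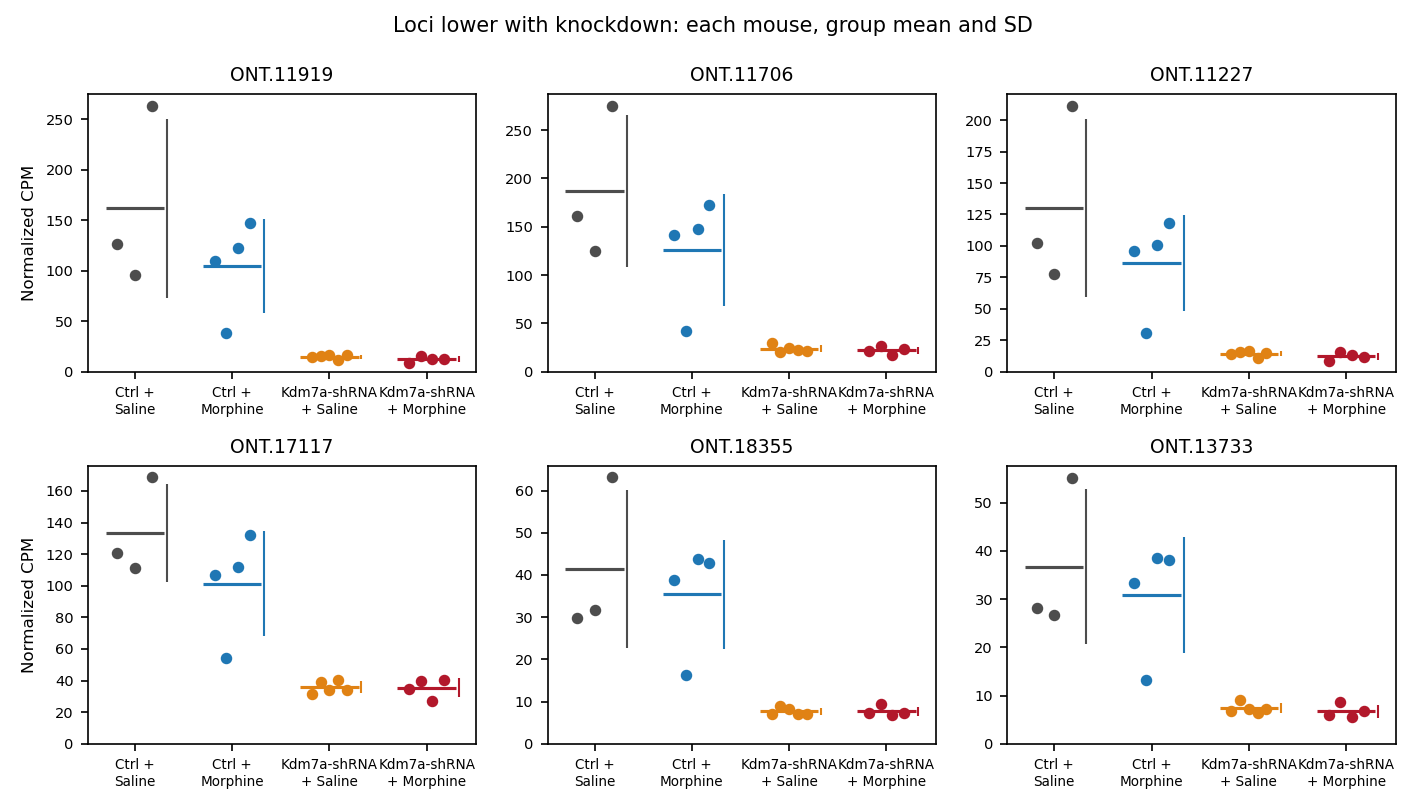
Normalized CPM (y axes, from 0) of 6 loci lower with knockdown, with a point per mouse, a horizontal line for the group mean and a vertical line for 1 SD to either side, in groups of 3, 4, 5 and 4 mice (x axes). Kdm7a-shRNA mice sit in a narrow band below all control mice, for ONT.11919 at 8.43 to 16.9 against 38.7 to 263.

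Of the 602 loci, 73 (12.1%) were lower in both comparisons, 42 passed as lower under saline alone and 1 under morphine alone, and 0 were called in opposite directions. These 73 are 63.5% of those lower under saline and 98.6% of those lower under morphine, the groups of the comparisons being different mice. Over all entries 3.9% were lower in both. Of the 73, 44 reached a mean of 100 counts in control and in knockdown mice alike, and 29 in the control mice only. The fold reduction of the 73 ranged from 1.68 to 10.8 with a median of 2.59 under saline, and from 1.58 to 8.38 with a median of 2.38 under morphine. In 44 of the 602 loci (7.31%) all 9 knockdown mice lay below all 7 control mice, against 471 of the 18826 entries (2.5%), and 36 of the 44 were among the 73. The rule favours this pattern in the 45 loci that passed through the control mice only. The 44 were not split by that, so no conclusion is drawn from their larger share.

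The 73 loci ordered the control mice in nearly the same way. Replicate 2 of Ctrl + Morphine was the lowest control mouse in 73 of the 73, and replicate 3 of Ctrl + Saline the highest in 69. Several of the 73 had near-equal counts, so neither these counts nor the correlations between them rest on 73 separate observations. How often these 2 mice were the extremes over all entries was not tested. Summed over the 73 loci, normalized CPM were 3379, 2872 and 5491 in Ctrl + Saline, 3270, 1573, 3580 and 3720 in Ctrl + Morphine, 1279, 1350, 1369, 1168 and 1264 in Kdm7a-shRNA + Saline and 1057, 1240, 984 and 1213 in Kdm7a-shRNA + Morphine mice. The control mouse at 1573 stood nearer to the knockdown mice, whose sums ended at 1369, than to the next control mouse at 2872.

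With group means removed, the median r between pairs of the 73 was 0.72 (quartiles 0.56 and 0.84), against 0.03 over all pairs of the 602. For 49 of the 73 the most similar annotated gene was 1 of 4, all named after their values were seen: Hist3h2a, a histone H2A gene, for 16, Exosc2, a subunit of the RNA exosome, for 13, Tmem245, a transmembrane protein, for 11, and Arl5c, a small GTPase of the ADP-ribosylation factor family, for 9. These genes were themselves lower with knockdown under saline, by log2 fold changes of -0.75, -0.76, -1.02 and -1.31 (adjusted p = 0.00423, 0.00605, 2.54e-04 and 0.00341), and under morphine, by -0.72, -0.59, -0.70 and -1.30 (adjusted p = 0.0114, 0.0366, 0.00693 and 0.00887). The matches were not closer than usual. Over the 73 the median of the highest r was 0.91, against 0.93 over the 602, and 10 of the 73 reached 0.95.

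Arl5c had 64.9 and 55.4 normalized CPM in replicates 1 and 2 of Ctrl + Saline and its highest level in replicate 3, and it had 55.4, 22.5, 62.6 and 65.8 in Ctrl + Morphine, 29.2, 28.7, 38.2, 21.7 and 30.2 in Kdm7a-shRNA + Saline, and 15.9, 20.7, 24.1 and 22.7 in Kdm7a-shRNA + Morphine mice. ONT.2842, at 94.5% of its counts, had 61.9, 53.3 and 98, then 53.1, 21.4, 60 and 63.5, then 28, 26.6, 35.3, 20 and 27.7, then 14.1, 17.9, 20.1 and 21.3 in the same groups. In both entries replicate 2 of Ctrl + Morphine was the lowest control mouse and lay within the range of the knockdown mice.

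Calls also fell on loci with near-equal counts. Of 42 loci under counting error of another, 16 (38.1%) were lower under saline and 12 (28.6%) under morphine, against 9.31% and 4.83% of all entries. In each comparison 5 (11.9%) were higher, against 7.43% and 2.86% of all entries. These 42 loci form 17 clusters, so the shares count near-equal loci more than once and are not shares of separate observations. Of the 5 higher loci, 3 are the cluster that follows Rpl23a. A cluster of 4, ONT.13151, ONT.17225, ONT.17878 and ONT.465, is an example. ONT.465 had 26.8, 31.7 and 45.2 normalized CPM in Ctrl + Saline against 18.2, 11.4, 13.5, 13.8 and 12.2 in Kdm7a-shRNA + Saline mice, with no overlap (log2 fold change -1.32, adjusted p = 0.00127). Under morphine the groups came close without overlapping, with 25.2, 19.5, 33.4 and 31.6 against 12.3, 19.3, 9.19 and 15.3 (log2 fold change -0.97, adjusted p = 0.0164). Counting 1 locus per cluster left 98 lower and 24 higher of 533 under saline, and 60 lower and 10 higher under morphine. Of the 40 loci within 5% of an annotated gene, 1 (2.5%) was lower under saline and 0 under morphine, and 2 (5%) were higher in each.

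Of the 27 loci higher under saline, 10 were also higher under morphine. ONT.11117 had 15.2, 8.29 and 12.1 normalized CPM in Ctrl + Saline and 22.5, 24.8, 23.3, 23.1 and 24.2 in Kdm7a-shRNA + Saline mice, 2-fold higher without overlap (adjusted p = 0.00101), and did not pass under morphine (log2 fold change 0.32, adjusted p = 0.212). ONT.10608 had 23.9, 17.1 and 24.4 against 37.2, 37.8, 39.1, 46.7 and 41.7 under saline (log2 fold change 0.90, adjusted p = 0.0011). Under morphine it had 25.7, 34.8, 25.6 and 26.9 against 43.1, 50.7, 40.1 and 41.2 (0.63, adjusted p = 0.0125). Its knockdown mice lay above all controls of the same treatment in both comparisons.

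ONT.19080 had the smallest adjusted p among the higher loci under morphine, with 13.7, 21.4, 13.8 and 13.2 in Ctrl + Morphine against 26.8, 28.4, 38 and 32.9 in Kdm7a-shRNA + Morphine mice (log2 fold change 1.03, adjusted p = 0.00344). ONT.7456, most like Rps10 (r = 0.99), had 136, 96.5 and 111 in Ctrl + Saline against 192, 222, 218, 165 and 202 in Kdm7a-shRNA + Saline mice (0.80, adjusted p = 0.00115). Under morphine ONT.7456 differed by 0.24 on the log2 scale and did not pass (adjusted p = 0.263).

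ONT.6123 belonged to a cluster with ONT.1265 and ONT.5586 that followed Rpl23a, a large ribosomal subunit gene. It had 264, 243 and 221 in Ctrl + Saline, 229, 252, 232 and 210.3 in Ctrl + Morphine, 366, 456, 451, 325 and 406 in Kdm7a-shRNA + Saline, and 354, 356, 426 and 320.0 in Kdm7a-shRNA + Morphine mice. All 9 knockdown mice lay above all 7 control mice, at log2 fold changes of 0.72 and 0.66 (adjusted p = 0.00125 and 0.00469), and Rpl23a itself was higher by 0.73 and 0.65 (adjusted p = 0.00107 and 0.00435).

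Loci most like a ribosomal protein gene at an r of 0.95 or more numbered 76. Their median log2 fold change was 0.41 under saline and 0.32 under morphine. For 92 genes picked by an Rpl or Rps symbol it was 0.40 and 0.32. That pick also admits kinase genes with an Rps6k symbol. It leaves out copies such as Rps12-ps3, whose followers are among the 76. Of the 76, 13 passed as higher under saline and 5 under morphine and 0 as lower, and without the requirement on the fold change 60 and 32 were higher. Of the 92 genes, 8 and 2 passed as higher and 0 as lower. Over all entries 7.43% passed as higher under saline and 2.86% under morphine, and 9.31% and 4.83% as lower.

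The lowest fold change under saline came from a locus whose mice of 1 group disagreed, ONT.4710, singled out after its values were seen. It had 1038, 646 and 3.31 normalized CPM in Ctrl + Saline against 101, 7.95, 5.1, 24.3 and 7.04 in Kdm7a-shRNA + Saline mice (log2 fold change -4.28, adjusted p = 0.0139). Replicate 3 of Ctrl + Saline was below all 5 knockdown mice, so the groups overlapped over the whole range of the latter. Under morphine ONT.4710 had 33.9, 8.64, 28 and 49.1 against 29.4, 84.9, 8.16 and 7.51, again with overlap (0.11, adjusted p = 0.965).

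The largest rise under saline came with low control mice. ONT.16136, also singled out after its values were seen and most like Tpt1, the gene of a translationally controlled tumor protein, had 335, 70.5 and 96.7 in Ctrl + Saline against 488, 612, 675, 448 and 630.2 in Kdm7a-shRNA + Saline mice (log2 fold change 1.77, adjusted p = 0.0045). The groups did not overlap, but replicates 2 and 3 of Ctrl + Saline were far below the 4 Ctrl + Morphine mice, which had 401, 294, 324 and 339.6. Under morphine the log2 fold change was 0.07 (adjusted p = 0.927).

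A further 3 of the 27 loci higher under saline, ONT.11739, ONT.12602 and ONT.14834, had low values in part of the control mice. They followed Rpl13, a large ribosomal subunit gene, and were singled out after their values were seen. ONT.12602 had 292, 19.8 and 69.8 normalized CPM in Ctrl + Saline, whereas the 13 other mice had 258 to 468. Rpl13 gave the same order, with 668, 46.9 and 164 in Ctrl + Saline. The log2 fold changes of 1.72 for ONT.12602 and 1.74 for Rpl13 under saline (adjusted p = 0.0217 and 0.0206) set the knockdown mice against a control group in which replicates 2 and 3 were low, and under morphine the values were 0.00 and 0.04.

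Morphine was compared with saline within each virus. Under the control virus 0 of the 602 loci passed, as did 0% of all entries, and 68 loci (11.3%) had an unadjusted p under 0.05, against 11.7% of all entries. DESeq2 called 4 loci, against 33 lower and 157 higher of all entries, and edgeR's exact test 1, against 31 lower and 131 higher. The median log2 fold change of the loci was -0.11, with 450 of 602 below 0, against -0.01 over all entries. Under the Kdm7a virus 0 loci passed with edgeR, against 0.00531% of all entries (1 gene). DESeq2 also called 0 loci, against 7 lower and 19 higher of all entries. With edgeR 49 loci (8.14%) had an unadjusted p under 0.05, against 7.02% of all entries.

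The smallest p under the control virus belonged to ONT.15765, with 25.6, 26.3 and 17.6 normalized CPM in Ctrl + Saline against 11.7, 12.7, 16.1 and 12.4 in Ctrl + Morphine mice, and to ONT.14503, with 52.5, 51.6 and 55.5 against 30.8, 38, 41.8 and 36.1. Neither pair of groups overlapped, and the log2 fold changes were -0.81 and -0.54 (adjusted p = 0.138 and 0.16). Under the Kdm7a virus they were ONT.7379, with 15.2, 23.2, 19.2, 10.9 and 11 against 38.8, 30, 27.3 and 37.7 (1.07, adjusted p = 0.427), and ONT.16628, with 201, 194, 191, 167 and 153 against 125, 122, 137 and 162 (-0.41, adjusted p = 0.427).

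No locus passed the test that the knockdown effect differs between morphine and saline, against 0.085% of all entries (16). With edgeR 61 loci (10.1%) had an unadjusted p under 0.05, against 10.7% of all entries. DESeq2 called 8 loci, against 173 negative and 54 positive of all entries. Without replicate 1 of Ctrl + Saline edgeR called 8 loci here, against 214 negative and 52 positive of all entries, and 7 with morphine under the control virus, against 23 lower and 207 higher. Without replicate 2 of Kdm7a-shRNA + Morphine it called 1 here, against 104 negative and 9 positive. ONT.9230 came nearest, at an interaction of -1.48 on the log2 scale (SE 0.31, adjusted p = 0.0719). It had 16.1, 13.5 and 10.1 in Ctrl + Saline and 35.4, 30.2, 34.1, 22.2 and 27.7 in Kdm7a-shRNA + Saline mice, and 25, 18.4, 18.5 and 29.4 in Ctrl + Morphine and 14.3, 24.5, 20.5 and 14.5 in Kdm7a-shRNA + Morphine mice. It was most like H2afv (r = 0.96), a histone H2A variant gene. ONT.12248 followed at -0.72 (adjusted p = 0.114).

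Covariation with cell classes asked whether the level of a locus moved with the mean log2 level of marker genes from mouse to mouse inside the groups. With group means removed and an exact permutation test over all 414720 ways to exchange mice inside their groups, 48 of the 602 loci (7.97%) covaried with at least 1 of 10 cell-class lists after Benjamini-Hochberg adjustment over 224940 relations, against 6.92% of the 18745 entries outside the lists. The share is near that background, and 0 loci passed without replicate 2 of Ctrl + Morphine or without replicate 4 of Kdm7a-shRNA + Saline, and 9 to 50 passed without 1 other mouse. The cause was not tested. Microglial markers had 12 loci with positive and 13 with negative covariation, excitatory neuron markers 11 and 10, and astrocyte markers 8 and 3. These are 4.15%, 3.49% and 1.83% of the loci, near the 3.99%, 2.84% and 1.73% of the entries outside the lists. The list scores were themselves correlated, with r = -0.89 between the excitatory neuron and the microglial score, and 0.88 between the astrocyte and the microglial score, while the striatal score had r of -0.04 with the microglial and -0.02 with the astrocyte score.

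ONT.6876 had the highest r, 0.98 with the microglial score over 16 mice (Spearman's rho 0.97, exact permutation p = 9.65e-06 and 1.69e-05, adjusted p = 0.0158), and 0.96 without the 2 mice farthest from the median score. Its level did not differ with knockdown, with 19.2, 15.9 and 17.5 normalized CPM in Ctrl + Saline and 18.3, 21.9, 24.2, 16.2 and 23.4 in Kdm7a-shRNA + Saline mice (edgeR adjusted p = 0.37). ONT.7148 had r = 0.94 with the microglial and 0.91 with the astrocyte score (exact permutation p = 3.38e-05 and 1.90e-04, adjusted p = 0.0201 and 0.035). ONT.7148 was also about 2-fold higher with knockdown, at 46.3, 38.1 and 47.8 in Ctrl + Saline and 68.4, 98.7, 118, 51.7 and 108 in Kdm7a-shRNA + Saline mice (edgeR adjusted p = 0.0136), and the microglial score of the same groups was 6.11 to 6.62 and 6.96 to 8.36. The part of the microglial markers in that difference was not tested.

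ONT.20014 had r = 0.92 with the excitatory neuron score (rho 0.90, exact permutation p = 1.01e-04 and 1.52e-04, adjusted p = 0.0281), and 0.91 without 2 mice. ONT.13168 had r = 0.91 with the oligodendrocyte score (rho 0.88, exact permutation p = 3.64e-04 and 3.86e-04, adjusted p = 0.0456), and ONT.3556 had r = 0.90 with the infiltrating leukocyte score (rho 0.85, exact permutation p = 2.41e-05 and 4.53e-04, adjusted p = 0.0185). For the GABAergic interneuron, oligodendrocyte precursor, endothelial and mural, red blood cell and striatal neuron lists the best matches, ONT.17208, ONT.15090, ONT.6876, ONT.8729 and ONT.5710, did not pass, with adjusted p of 0.102, 0.0596, 0.0747, 0.346 and 0.207. Of 2 lists of RNA kinds, mitochondrially encoded RNA was matched best by ONT.18130 (r = 0.81, exact permutation p = 2.39e-04, adjusted p = 0.0385). The nuclear-retained list had 1 gene tested, Snhg11, and the highest r was 0.75 for ONT.13238 (exact permutation p = 0.00303, adjusted p = 0.106).

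Of the 73 loci lower in both knockdown comparisons, 0 covaried with any list, and their median r was 0.20 with the microglial, -0.28 with the excitatory neuron and -0.28 with the red blood cell score. Their median r with the log2 total count of the mouse was -0.33, against -0.10 over all 602 loci. The 30 loci higher in at least 1 comparison had a median r of 0.56 with the microglial score. It was 0.53 with the endothelial and mural, 0.43 with the oligodendrocyte precursor and -0.43 with the excitatory neuron score. With the microglial score 3 of the 30 passed, against 3.99% of the entries outside the lists. Some of the 30 had near-equal counts, so they are not 30 separate observations.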

How the data were processed

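Whole-number read counts per gene or assembled locus were deposited by the authors for 16 mice after alignment of Nanopore cDNA-PCR reads with minimap2 (mouse build mm10) and assembly of loci outside the annotation. The deposited table also held CPM (counts scaled to the library total) made by the authors, which equalled each count over its column total to within 4.99e-06, and columns of their own comparisons, which were not used. The submitters' notes name edgeR 3.8.6.

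Counts were tested with edgeR 4.0.16 in R 4.3.3 (filterByExpr, TMM, quasi-likelihood test, all mice in 1 fit with 1 coefficient per group, Benjamini-Hochberg adjustment over all tested entries). DESeq2 1.42.0 and edgeR's exact test served as alternative tests. A pseudocount of 0.5 was added before log2 in covariation, whose p-values were adjusted over all entries and lists, where the design had planned the loci alone. Near-equality within 5% of summed counts was planned, and the condition on counting error was added after the data were seen. Scripts were tested on simulated data.

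The loci, lists and tests were chosen with earlier results of these data known. Named loci were the 8 most abundant, the 5 lower and 3 higher with the smallest adjusted p per knockdown comparison (1 per near-equal cluster), the 2 with the smallest p in each other comparison, the 3 largest clusters, the best match of each list, those beside the threshold, and Kdm7a. Genes most like a locus were named after their values were seen. Reads carried no molecular identifiers, so counts include PCR copies, and p-values measure the spread between mice of a group. Alternatives were other normalizations, filters, tests, count minimums, tolerances, a replicate block and leaving out each mouse.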

Additional observations from a re-analysis of the deposited data

Results flagged for a closer look

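In 51 named loci and 153 groups of 4 or 5 mice, 9 groups had 1 mouse whose gap to the nearest other mouse, divided by the group's range, passed Dixon's 95% value (0.829 for 4 mice). Chance flags about 1 in 20 groups, and 3 of these loci follow the same gene. Replicate 1 of Ctrl + Morphine was high for ONT.4709, at 12892 normalized CPM against 561 to 2157 (ratio 0.871). Replicate 3 of Kdm7a-shRNA + Morphine was low for the 3 loci that follow Gapdh, ONT.3161 (0.874), ONT.10900 (0.931) and ONT.6215 (0.92), and for the first of them had 2148 against 2450.1 to 2494. The same mouse was high for ONT.15541 (0.899), at 568 against 457 to 468, and for ONT.4952 (0.839), at 409.7 against 331 to 343. Replicate 2 of Ctrl + Morphine was high for ONT.10608 (0.86), at 34.8 against 25.6 to 26.9, and for ONT.19080 (0.928), at 21.4 against 13.2 to 13.8. Replicate 2 of Kdm7a-shRNA + Morphine was high for ONT.12248 (0.905), at 20.1 against 17.2 to 17.4.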

How the results depend on the processing

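The table gives loci no position or sequence, so shared reads could not be traced, and clusters limit the number of separate observations. Of 207 recomputed counts, 170 stayed within 1.5 times, and of 304 recomputed fold changes of named loci 300 kept direction and side of the threshold, 4 fell below it and 0 reversed. With library size only, 6 loci were higher under morphine, and the lower share of all calls went from 55.6% to 70.8% under saline and from 62.8% to 76.0% under morphine. Adjusted p alone gave 94 and 51 higher loci under saline and morphine. A mean count of at least 50 gave 236 and 142 lower loci, and of at least 200 gave 52 and 32, by construction of the rule. Loci that reached 100 counts in control and in knockdown mice alike (added after seeing the data) gave 45 lower under morphine. DESeq2 called 4 loci with morphine under the control virus and 8 interactions, and edgeR's exact test called 1 of the former, and the cause was not tested. The interaction has no value with only the compared groups or in the exact test. Near-equal loci were 53 at a tolerance of 2%, 250 at 10% and 42 under counting error (added after seeing the data). Spearman's rho gave 24 covarying loci.

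Leaving out 1 mouse at a time, lower loci were 87 to 133 under saline and 46 to 89 under morphine, higher loci 13 to 40 and 3 to 18, morphine calls under the control virus 0 to 7 and under knockdown 0 to 0, interactions 0 to 8, near-equal loci 102 to 110 and covarying loci 0 to 50.

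With the replicate number as a block, 121 loci were lower and 38 higher under saline, 74 and 11 under morphine, and 0 passed elsewhere. Same-numbered mice of different groups deviated with r from -0.116 to 0.433 (median 0.00401), above 0.1 in 6 of 21 pairs. Differently numbered mice had r from -0.514 to 0.342 (median -0.00243), above 0.1 in 13 of 74 pairs. Whether the number marks anything that mice share was not tested.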
